A study of Mus musculus with 16 samples.

Results

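Cytoplasmic polyadenylation elements (CPEs) are short U-rich motifs in 3′-UTRs that are bound by the CPEB family of RNA-binding proteins. The regions described here are the 3′-UTRs whose CPE arrangement the study predicted to give strong early cytoplasmic activation. They were chosen by that prediction alone, which rests on sequence, with or without an added prediction of repression, and no read count entered the choice. The rule found 1543 distinct regions of 1247 genes, among 26860 distinct 3′-UTR regions of 14925 genes. A repression prediction was also carried by 701 of the 1543 regions, and 842 carried none.

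The reads come from macrophages grown for 7 days from the femur marrow of adult mice, in a medium conditioned by L cells as the source of M-CSF. CPEB4 and the RNA bound to it were crosslinked with formaldehyde and pulled down with an antibody to CPEB4 (RIP), and RNA of the same lysate, depleted of ribosomal RNA, was sequenced beside it (Input). The cells were wild type (WT) or came from full CPEB4 knockout mice (KO), and the strain of both is given as C57BL/6J 129. They received nothing, or lipopolysaccharide (LPS), a component of the bacterial outer membrane, at 10 ng/ml over 9 h. Each genotype is 1 culture, and each of the 8 combinations of genotype, treatment and assay is 1 library run on 2 lanes, so no difference below has a replicate check and no test of the conditions was possible.

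CPEB proteins recruit the machinery that lengthens or shortens the poly(A) tail, and the position of a CPE relative to the polyadenylation hexanucleotide is known to set when and how strongly an mRNA is activated. Clustered CPEs are known to hold an mRNA silent before that. CPEB4 is the family member known to act late in meiosis and in several somatic tissues, and in macrophages it has been tied to the stability of mRNAs of the inflammatory response.

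In the predicted arrangement a consensus CPE, TTTTAT or TTTTAAT in DNA letters, lies from 3 to 45 bases upstream of a hexanucleotide, AATAAA or ATTAAA, near the end of the 3′-UTR. Read on the annotated strand of GRCm38.p6, the same build as that of the files (mm10), all 1543 regions met the rule. The consensus arrangement was present in 1493 of them, and the other 50 met it through a nonconsensus CPE next to a consensus CPE or a Pumilio element. Among all 26860 regions, 1593 (5.93%) held the consensus arrangement, so that 100 of them carried another prediction. The sites of 11 regions that the results turn on are shown to let the arrangement be compared between regions of high and low recovery. All lie in exonic sequence annotated as 3′-UTR of the named gene, coordinates are those of mm10, and capitals mark the CPE and then the hexanucleotide.
Txnip, chr3:96561848-96561866, plus strand: TTTTAATgacaaaAATAAA
Dusp1, chr17:26505609-26505627, minus strand: TTTTATacaacagAATAAA
Pim3, chr15:88865684-88865707, plus strand: TTTTATacaggtatttcaATTAAA
Cnot7, chr8:40493041-40493055, minus strand: TTTTATatcAATAAA
Pan3, chr5:147548471-147548496, plus strand: TTTTAATaaagaattgcagaAATAAA
Tpra1, chr6:88912209-88912224, plus strand: TTTTAATaaaAATAAA
Stt3a, chr9:36732426-36732443, minus strand: TTTTATcaaatgAATAAA
Fzd1, chr5:4753866-4753884, minus strand: TTTTAATttcgcaAATAAA
Rpa1, chr11:75298182-75298200, minus strand: TTTTATgccttccATTAAA
Mavs, chr2:131247989-131248007, plus strand: TTTTATcaggataATTAAA
Slfn4, chr11:83190177-83190197, plus strand: TTTTAATatttctaaAATAAA

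The libraries held from 467696 (KO RIP, untreated) to 2492300 (WT RIP, LPS) 3′-UTR reads, and levels are given as CPM, counts scaled to the sum of these reads in each library. The 3′-UTR reads made up 48.9% and 70.1% of the library totals in the WT RIPs, 27.3% and 31.8% in the KO RIPs and 46.4% to 51.1% in the Inputs. Cpeb4 itself, whose main 3′-UTR is predicted for repression only, was at 130 and 136 CPM in the WT Inputs and at 52.0 and 52.6 CPM in the KO Inputs. These reads lie in the 3′-UTR, and whether the deletion covers it is not given in the sources used here, so they do not check the genotype. The 14 measured macrophage markers were all detected in every library and summed to 3266 to 4316 CPM in the Inputs. In the RIPs they summed to 3181 and 2859 CPM in WT and to 5489 and 4054 CPM in KO. Markers of T and B cells summed to at most 12.8 CPM, of neutrophils to 8.55 CPM, of dendritic cells to 14.97 CPM and of stromal and erythroid cells to 5.74 CPM in any library.

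Of the 1543 regions, 770 (621 genes) had at least 40 reads summed over the 4 Inputs and are described from here on, among 11012 regions of the series that did. The filter did not use the RIP reads. The other 773 stayed below it, and 125 of those still had at least 40 reads in the 4 RIPs. Early strong regions, as the 770 are called below, had a median length of 1421 bases and a median GC content of 43.6%, against 777 bases and 49.3% in the 7387 regions without a CPE prediction. They held a median of 3 consensus CPEs, and 71.0% had at least 2. At least 2 AUUUA motifs, the core of AU-rich elements, were present in 60.4% of them, against 33.0% of the regions without a CPE prediction.

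Early strong regions took a larger share of the 3′-UTR reads in the WT RIPs than in any other library. All 1543 regions together held 10.0% (untreated) and 9.77% (LPS) of the reads over distinct regions in the WT RIPs. They held 8.56% and 8.35% in the KO RIPs, and from 7.398% to 8.04% in the 4 Inputs. The median level of an early strong region was 52.5 CPM in the untreated WT RIP and 42.8 CPM in the untreated KO RIP. After LPS it was 46.1 CPM in the WT RIP and 35.6 CPM in the KO RIP. In the Inputs the medians were 35.5 CPM (WT, untreated), 39.97 CPM (KO, untreated), 32.4 CPM (WT, LPS) and 32.3 CPM (KO, LPS). Both WT RIPs therefore stood above the KO RIP of the same treatment, whereas the Inputs of the genotypes lay closer together.

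The study compares the WT RIP with the KO RIP to find mRNAs whose recovery depends on CPEB4, and this ratio is given here as the log2 ratio of CPM + 1 per region. In untreated cells its median was 0.31 in early strong regions (quartiles -0.16 and 0.84), against -0.05 over all regions. Of the 770 regions, 137 (17.8%) were past a log2 ratio of 1, where 11.1% of all regions were. At or under -1 there were 31 (4.03%), where 13.0% of all regions were. After LPS the median was 0.30 (quartiles -0.18 and 0.77), against -0.08 over all regions. Then 125 regions (16.2%) were past a log2 ratio of 1, against 8.70% of all regions, and 47 (6.10%) were at or under -1, against 17.6%. Scaling to the library totals in place of the 3′-UTR reads moved the median of all regions by 0.73 (untreated) and 1.03 (LPS), because the share of 3′-UTR reads differs between RIPs. On that scale 426 and 536 early strong regions (55.3% and 69.6%) were past 1, against 34.4% and 47.4% of all regions, and 3 and 3 were under -1 (0.39% each), against 1.48% and 1.56%. There, the distance of their median to that of all regions was 0.38 and 0.41, close to the 0.36 and 0.37 of the scale used here.

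The WT and KO RIPs of untreated cells share no library with those of LPS-treated cells, and both pairs gave medians of the same sign. A log2 ratio of 1 was passed in both treatments by 65 early strong regions (8.44%), against 3.81% of all regions. These were 47.4% of the untreated calls and 52.0% of the LPS calls, and over all regions the shares were 34.3% and 43.8%. The ratio was above 0 in both treatments in 434 of the 770 regions (56.4%), and in 34.6% of all regions. Spearman's correlation between the treatments was 0.65 over the 770 regions, some of which share a gene, and 0.64 over all regions. All points share the same antibody and cultures, so it describes these libraries only.

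**Figure D1:**
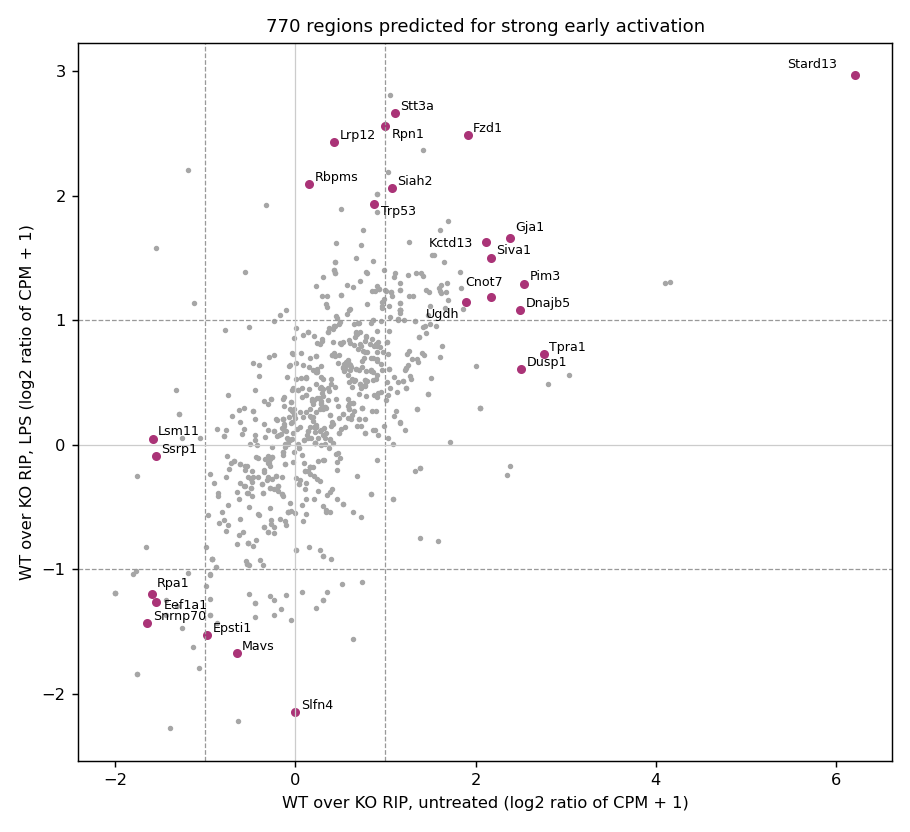
The WT over KO RIP log2 ratio of CPM + 1 of the 770 early strong regions in untreated cells (x axis) and after LPS (y axis), 1 grey point per region, with the named regions of the highest and lowest ratios and Stard13, which had no KO RIP read, in colour and dashed lines at -1 and 1. Of the 770 points 434 lie above 0 on both axes, and 65 lie past 1 on both.

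The Inputs of the genotypes were compared beside the RIPs. The WT over KO Input ratio of early strong regions had a median of -0.07 in untreated cells and -0.01 after LPS, against -0.03 and 0.04 over all regions. Of the 770, 12 (1.56%) and 11 (1.43%) were past 1, against 2.20% and 2.01% of all regions, and 36 (4.68%) and 13 (1.69%) were under -1, against 4.06% and 1.29%. With the Input ratio subtracted, the median of the WT over KO RIP ratio was 0.40 in untreated cells and 0.31 after LPS, against 0.00 and -0.14 over all regions. On this input-corrected scale 197 (25.6%) and 162 (21.04%) were past 1, against 16.8% and 10.5% of all regions, and 47 (6.10%) and 60 (7.79%) were under -1, against 16.4% and 21.0%. This ratio combines 4 libraries, each with its own counting error. Scaled to library totals, 436 and 518 early strong regions (56.6% and 67.3%) passed 1 on it, against 38.7% and 47.4% of all regions, and 10 and 4 (1.30% and 0.519%) lay under -1, against 3.24% and 2.29%.

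Recovery over Input was higher in WT than in KO cells. The WT RIP over Input ratio had a median of 0.35 untreated and 0.31 after LPS, against -0.16 and -0.27 over all regions. It passed 1 in 232 (30.1%) and 223 (29.0%) of the 770, against 19.7% and 17.1% of all regions, and 78 (10.1%) and 101 (13.1%) were under -1, against 25.5% and 30.9%. In KO cells the same ratio had a median of -0.03 and 0.01, against -0.16 and -0.15 over all regions, and 116 (15.1%) and 103 (13.4%) passed 1, against 13.1% and 12.2%. Under -1 were 111 (14.4%) and 89 (11.6%), against 16.9% and 14.8%. The KO RIPs measure recovery without CPEB4, and there too early strong regions lay above the median of all regions, by 0.13 and 0.15. The side of 0 of a RIP over Input ratio depends on the scaling. With library totals the KO medians of early strong regions were -0.73 and -0.61, with 26 and 32 regions (3.38% and 4.16%) past 1, against 2.88% and 3.11% of all regions, and 290 and 243 (37.7% and 31.6%) under -1, against 41.6% and 37.4%. The WT medians were 0.38 and 0.78, with 238 and 322 regions (30.9% and 41.8%) past 1, against 19.8% and 27.5% of all regions, and 66 and 40 (8.57% and 5.19%) under -1, against 22.4% and 18.7%. With TMM factors the LPS medians were 0.15 in KO and 0.57 in WT, with 135 and 278 regions (17.5% and 36.1%) past 1, against 15.2% and 22.97% of all regions, and 65 and 73 (8.44% and 9.48%) under -1, against 11.2% and 24.97%.

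Regions of the other CPE classes were also higher in the WT RIPs. The WT over KO RIP ratio had a median of 0.22 (untreated) and 0.24 (LPS) in the 803 regions predicted for weak early activation, in which the CPE lies elsewhere around the hexanucleotide. It was 0.24 and 0.33 in the 1959 regions predicted for repression only. The highest medians, 0.50 and 0.46, were those of the 93 regions with another activation prediction. Of these, 26 (27.96%) and 23 (24.7%) were past 1, against 11.1% and 8.70% of all regions. Past 1 were also 14.2% and 12.5% of early weak regions and 12.4% and 12.3% of those with repression only. In both treatments 19.4% of regions with another activation prediction, 6.23% of early weak and 4.90% of repression-only regions were past 1, beside 8.44% of early strong regions. The 7387 regions without a CPE prediction had medians of -0.23 and -0.31. On the input-corrected scale the medians were 0.39 and 0.22 in early weak regions, 0.44 and 0.29 with repression only and 0.64 and 0.54 with another activation prediction, beside 0.40 and 0.31 in early strong regions. The medians of early strong, early weak and repression-only regions thus lay close together, and without replicates there is no error to set such a difference against.

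**Figure D2:**
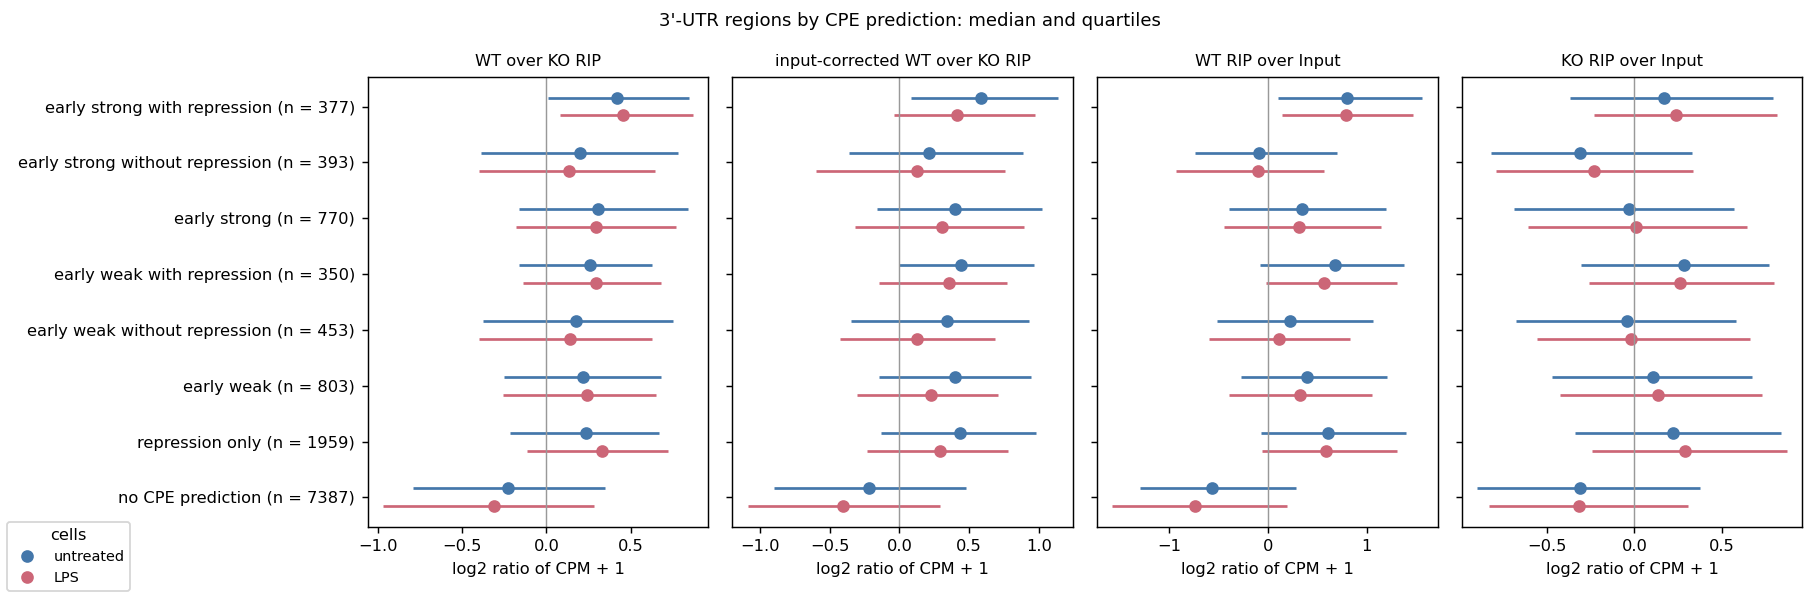
Median (point) and quartiles (line) of 4 log2 ratios of CPM + 1 in regions grouped by CPE prediction, in untreated (blue) and LPS-treated (red) cells. In the WT over KO RIP panel all groups with a CPE prediction have medians above 0 and the regions without one lie at -0.23 and -0.31, and in the KO RIP over Input panel groups with a repression prediction have the highest medians.

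An added repression prediction, which marks at least 2 CPEs within 50 bases of each other, split the early strong regions. The 377 regions with it had WT over KO RIP medians of 0.42 (untreated) and 0.46 (LPS), and the 393 without it had 0.20 and 0.13. Past a log2 ratio of 1 were 69 (18.3%) and 71 (18.8%) of those with it, and 68 (17.3%) and 54 (13.7%) of those without it. Over all regions these shares were 11.1% and 8.70%. Under -1 were 6 (1.59%) and 8 (2.12%) of those with repression, and 25 (6.36%) and 39 (9.92%) of those without, against 13.0% and 17.6% of all regions. The same split ran through the KO RIPs, where RIP over Input had medians of 0.17 and 0.24 with and of -0.31 and -0.23 without repression. Regions with repression were longer (median 1947 against 1020 bases) and poorer in GC (40.8% against 46.9%). The weak early regions showed a split of the same direction, from 0.18 and 0.14 without to 0.26 and 0.29 with repression.

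Base composition moved with the RIP over Input and the WT over KO RIP ratios. Over the 770 regions, Spearman's correlation of GC content with the KO RIP over Input ratio was -0.61 in untreated cells and -0.66 after LPS. With the WT RIP over Input ratio it was -0.71 and -0.73, and with the WT over KO RIP ratio -0.15 and -0.27. Early strong regions under 36% GC had a median WT over KO RIP ratio of 0.58 and 0.63 (n = 93), and those of 48 to 54% GC had 0.10 and -0.07 (n = 183). In these same bins, regions without a CPE prediction had medians of 0.20 and 0.28 (n = 324) and of -0.35 and -0.50 (n = 2366). Early strong regions had the higher median in all 6 bins of GC content and in both treatments, by 0.20 to 0.80 in untreated cells and by 0.30 to 0.99 after LPS. In the KO RIP over Input ratio early strong regions were the higher ones only under 36% GC, with 1.09 against 0.91 untreated and 1.05 against 0.96 after LPS, and lay below the regions without a prediction in the other 5 bins, down to -0.81 against -0.73 and -0.74 against -0.69 at 54% or more. In 5 bins of length early strong regions were also above those without a prediction throughout, by 0.40 to 0.63 and by 0.43 to 0.60. Against regions predicted for repression only, they were higher in 5 of 6 GC bins untreated and in 6 of 6 after LPS, by at most 0.27 and 0.22, but in bins of length they were higher in 4 of 5 untreated (-0.06 to 0.19) and in 2 of 5 after LPS (-0.22 to 0.11). Against early weak regions they were higher in 5 of 6 GC bins untreated (-0.03 to 0.26) and in 4 of 6 after LPS (-0.11 to 0.20). Input-corrected, they were higher in 3 of 6 GC bins untreated and 5 of 6 after LPS against early weak regions, and in 4 of 6 and 5 of 6 against repression only. The part of GC content and length in these differences beyond such bins was not tested.

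**Figure D3:**
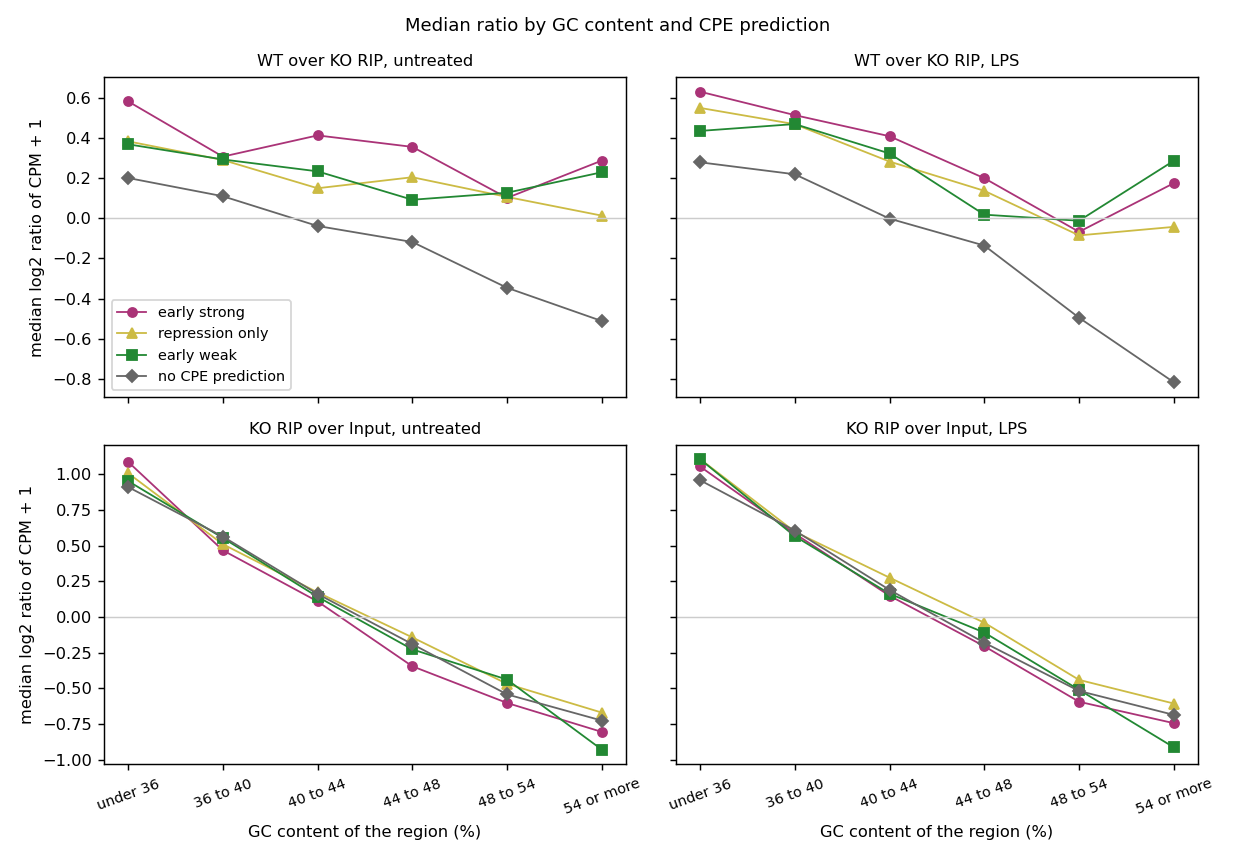
Median log2 ratio of CPM + 1 (y axis) in 6 bins of the GC content of the region (x axis) for 4 classes of CPE prediction, in untreated (left) and LPS-treated (right) cells. In the WT over KO RIP panels the early strong line lies above the line without a CPE prediction in all 6 bins, and in the KO RIP over Input panels all lines fall together, from 1.09 (untreated) and 1.05 (LPS) to -0.81 and -0.74 in early strong regions.

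The CPE nearest to the hexanucleotide was TTTTAT in 564 of the 770 regions and TTTTAAT in 189, and 17 had none within 3 to 45 bases. The WT over KO RIP median was 0.35 (untreated) and 0.33 (LPS) with TTTTAT, and 0.16 and 0.15 with TTTTAAT. GC content (43.7% and 42.6%) and length (1421 and 1412 bases) were alike in both sets. In the KO RIP over Input ratio the order was the other way, with -0.08 and -0.07 for TTTTAT and 0.13 and 0.13 for TTTTAAT. The hexanucleotide was AATAAA in 625 regions and ATTAAA in 145, and the WT over KO RIP medians were 0.31 and 0.34 untreated and 0.30 and 0.29 after LPS.

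Without Input correction, the number of CPEs went with the ratio mainly after LPS. The LPS median of WT over KO RIP was 0.02 in the 223 regions with at most 1 consensus CPE, 0.12 with 2, 0.21 with 3, 0.47 with 4, 0.60 with 5 to 6 and 0.55 with 7 or more. In untreated cells the same groups had medians of 0.28, 0.20, 0.18, 0.35, 0.44 and 0.43. Input-corrected, the medians were 0.15, 0.27, 0.27, 0.43, 0.68 and 0.67 untreated. After LPS they were 0.03, 0.01, 0.23, 0.35, 0.54 and 0.45. Without the correction, 20.6% (untreated) and 17.5% (LPS) of the regions with at most 1 CPE were past 1. With 7 or more CPEs these were 13.5% and 16.2%, against 11.1% and 8.70% of all regions. Median length rose from 596 to 3379 bases and GC content fell from 48.9% to 38.8% over these groups. Regions without AUUUA had WT over KO RIP medians of 0.06 and -0.10 (n = 170), and those with 4 or more had 0.41 and 0.48 (n = 279), with median lengths of 517 and 2472 bases. The shares past 1 did not follow these medians. They were 22.4% without AUUUA and 15.4% with 4 or more in untreated cells, against 11.1% of all regions. After LPS they were 15.9% and 16.1%, against 8.70%. The WT over KO RIP medians differed less with the number of Pumilio elements. They were 0.31 and 0.25 in 485 regions without, 0.28 and 0.41 in 178 with 1 and 0.38 and 0.37 in 107 with 2 or more. Input-corrected, the medians of these groups were 0.31, 0.51 and 0.59 untreated and 0.29, 0.33 and 0.30 after LPS. Past 1 without the correction were 19.6%, 16.9% and 11.2% untreated, against 11.1% of all regions. After LPS these were 16.5%, 15.2% and 16.8%, against 8.70%.

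The distance between CPE and hexanucleotide separates the strong from the weak prediction at 45 bases. Regions with the CPE 3 to 10 bases upstream had WT over KO RIP medians of 0.38 and 0.32 (n = 182), those at 11 to 20 bases 0.36 and 0.38 (n = 166), at 21 to 30 bases 0.22 and 0.23 (n = 183) and at 31 to 45 bases 0.25 and 0.29 (n = 222). With 1 region per gene these medians were 0.32, 0.31, 0.23 and 0.29 untreated and 0.35, 0.38, 0.24 and 0.30 after LPS, and the difference between regions with the CPE within 20 bases and those beyond fell from 0.14 to 0.034 untreated and from 0.10 to 0.076 after LPS. In weak early regions the medians were 0.22 and 0.42 at 0 to 2 bases (n = 54), where 12 regions (22.2%) were past 1 in each treatment, so that the LPS median was above those of all 4 groups of early strong regions. They were 0.13 and 0.13 at 46 to 60 bases (n = 155), 0.13 and 0.27 at 61 to 80 bases (n = 190) and 0.25 and 0.20 at 81 to 100 bases (n = 160). Just inside the limit, the 48 regions at 43 to 45 bases had medians of 0.17 and 0.09, and just outside it the 29 at 46 to 48 bases had 0.00 and -0.10. The quartiles of all these groups overlapped widely. Past a log2 ratio of 1 in untreated cells were 37 of the 182 early strong regions at 3 to 10 bases (20.3%). At 11 to 20 bases there were 43 of 166 (25.9%), at 21 to 30 bases 27 of 183 (14.8%). At 31 to 45 bases there were 28 of 222 (12.6%), beside 11.1% of all regions. After LPS the shares were 12.1%, 27.1%, 12.02% and 14.9% in the same order, beside 8.70% of all regions. The share did not fall steadily with distance in either treatment.

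**Figure D4:**
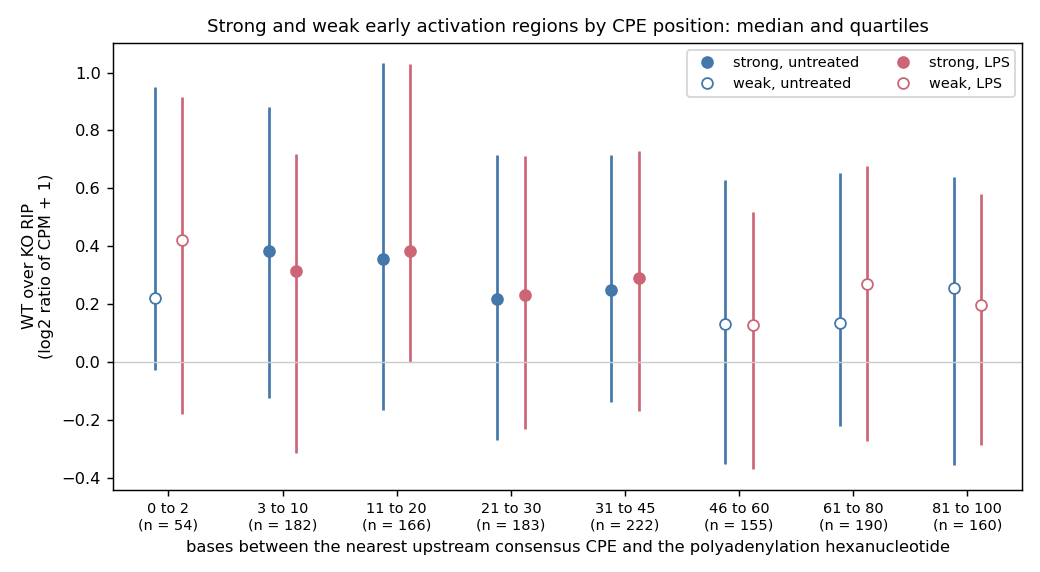
Median (point) and quartiles (line) of the WT over KO RIP log2 ratio of CPM + 1 (y axis) by the number of bases between the nearest upstream consensus CPE and the hexanucleotide (x axis), in early strong (filled) and weak early (open) regions. Medians lie between 0.13 and 0.42 in all groups, and the quartiles overlap across the limit of 45 bases.

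Some genes held an early strong region and another 3′-UTR region that did not overlap it, so that both could be compared within the gene. Of 34 such genes the early strong region had the higher WT over KO RIP ratio in 21 (61.8%) in untreated cells and in 27 (79.4%) after LPS. The median difference was 0.36 and 0.71. The early strong region of these genes was longer (median 572.5 against 211 bases) and poorer in GC (45.9% against 51.1%). The other region was predicted for repression only in Amz2, Ociad1 and Rsu1, for weak early activation in Epsti1 and had no CPE prediction in the rest. It was as short as 2 bases in Unc93b1 and 26 bases in Pgap2, so the regions of a gene were not matched.

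The highest WT over KO RIP ratios in untreated cells belonged to Tpra1, Pim3, Dusp1, Dnajb5, Siva1, Cnot7, Kctd13 and Ugdh, among 443 genes with enough reads for the ranking. Dusp1, the phosphatase that inactivates p38 and JNK, was at 89.4 CPM in the WT RIP and 14.97 CPM in the KO RIP. Its Inputs were at 18.3 CPM (WT) and 32.4 CPM (KO), a WT over KO ratio of 0.56-fold. The order of the genotypes was the other way there, but the 95% counting interval of 0.30 to 1.01 includes 1. The ratio of the RIPs was 5.98-fold (95% counting interval 2.83 to 15.1). After LPS Dusp1 was at 184 CPM in the WT RIP, 120 CPM in the KO RIP, 78.0 CPM in the WT Input and 104 CPM in the KO Input. The RIPs then differed 1.53-fold (1.23 to 1.90), on the same side and with intervals that do not overlap those of untreated cells. All intervals of this kind come from the read counts of 2 libraries and cover counting error only. Scaled to library totals, every WT over KO RIP fold of a single region is 1.79 times as high untreated and 2.21 times as high after LPS. Values well below 1-fold can thus lie above it there, as the 0.63-fold of untreated Mavs becomes 1.13-fold.

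Pim3, a serine/threonine kinase of the PIM family, was at 42.0 CPM in the untreated WT RIP and 6.41 CPM (3 reads) in the KO RIP, with Inputs of 19.4 and 26.4 CPM. After LPS the WT RIP was at 181 CPM and the KO RIP at 73.4 CPM, with Inputs of 151 and 147 CPM. The RIPs differed 6.55-fold (2.15 to 32.5) untreated and 2.47-fold (1.90 to 3.26) after LPS. The WT RIP was the higher one in both treatments while the Inputs were close, and the untreated interval is wide because of the 3 KO reads. Tpra1 had the highest untreated log2 ratio of the ranking, with 63.6 CPM in the WT RIP, 8.55 CPM in the KO RIP and Inputs of 36.6 and 27.9 CPM. Its 7.44-fold ratio (2.82 to 27.8) became 1.75-fold (0.72 to 5.14) after LPS, when all 4 libraries were between 6.88 and 12.04 CPM. Dnajb5, an HSP40 co-chaperone, Siva1, a pro-apoptotic protein, and Kctd13, an adaptor of CUL3 ubiquitin ligases, each had 3 reads in the untreated KO RIP. Their untreated ratios were 6.36-fold (2.09 to 31.6), 5.05-fold (1.64 to 25.3) and 4.87-fold (1.58 to 24.4), and their LPS ratios 2.15-fold (1.42 to 3.39), 3.15-fold (1.25 to 10.2) and 3.30-fold (1.66 to 7.47). Ugdh, which makes UDP-glucuronate, differed 3.86-fold (1.89 to 9.16) and 2.24-fold (1.67 to 3.06). Its WT over KO Input ratios were 0.49-fold (0.27 to 0.86) untreated and 0.77-fold (0.56 to 1.07) after LPS, where the interval includes 1.

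The highest ratios after LPS belonged to Stt3a, Rpn1, Fzd1, Lrp12, Rbpms, Siah2, Trp53 and Gja1, among 490 ranked genes. Stt3a and Rpn1 are subunits of the oligosaccharyltransferase, which transfers N-glycans to proteins in the endoplasmic reticulum. Stt3a was at 63.4 CPM in the LPS WT RIP and 9.18 CPM in the KO RIP, with Inputs of 24.8 and 22.6 CPM. The RIPs differed 6.91-fold (3.42 to 16.3), and 2.19-fold (1.25 to 4.13) in untreated cells at 65.4 and 29.9 CPM. Rpn1 was at 79.4 CPM in the WT RIP and 12.6 CPM in the KO RIP after LPS, with Inputs of 60.6 and 41.3 CPM. Its RIPs differed 6.29-fold (3.44 to 12.8) after LPS and 2.01-fold (1.33 to 3.16) untreated. In both genes the WT RIP was the higher one in each treatment and the KO RIP level was lower after LPS. Their KO Inputs were lower after LPS as well, from 73.2 to 41.3 CPM for Rpn1 and from 26.4 to 22.6 CPM for Stt3a. For Stt3a the counting interval of this Input change includes 1.

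Trp53, which encodes the tumour suppressor p53, was at 55.4 CPM in the LPS WT RIP and 13.8 CPM in the KO RIP, with Inputs of 33.7 and 29.95 CPM, and its RIPs differed 4.02-fold (2.23 to 7.97). In untreated cells they differed 1.86-fold (1.13 to 3.24). Fzd1, a Wnt receptor, was hardly present without LPS, with 6.46 and 1.51 CPM in the WT and KO Inputs. After LPS it was at 60.1 and 33.9 CPM in the Inputs and at 114 CPM in the WT RIP and 19.5 CPM in the KO RIP, a 5.84-fold difference (3.58 to 10.2). The WT Input was thus also above the KO Input, 1.77-fold (1.26 to 2.51). Lrp12, an LDL receptor-related protein, Rbpms, an RNA-binding protein, Siah2, a ubiquitin ligase, and Gja1, the gap junction protein connexin 43, had LPS ratios of 6.15-, 4.55-, 4.42- and 3.23-fold. In untreated cells Lrp12 differed 1.36-fold (0.869 to 2.203), and Rbpms and Gja1 had at most 20 reads in a RIP.

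**Figure D5:**
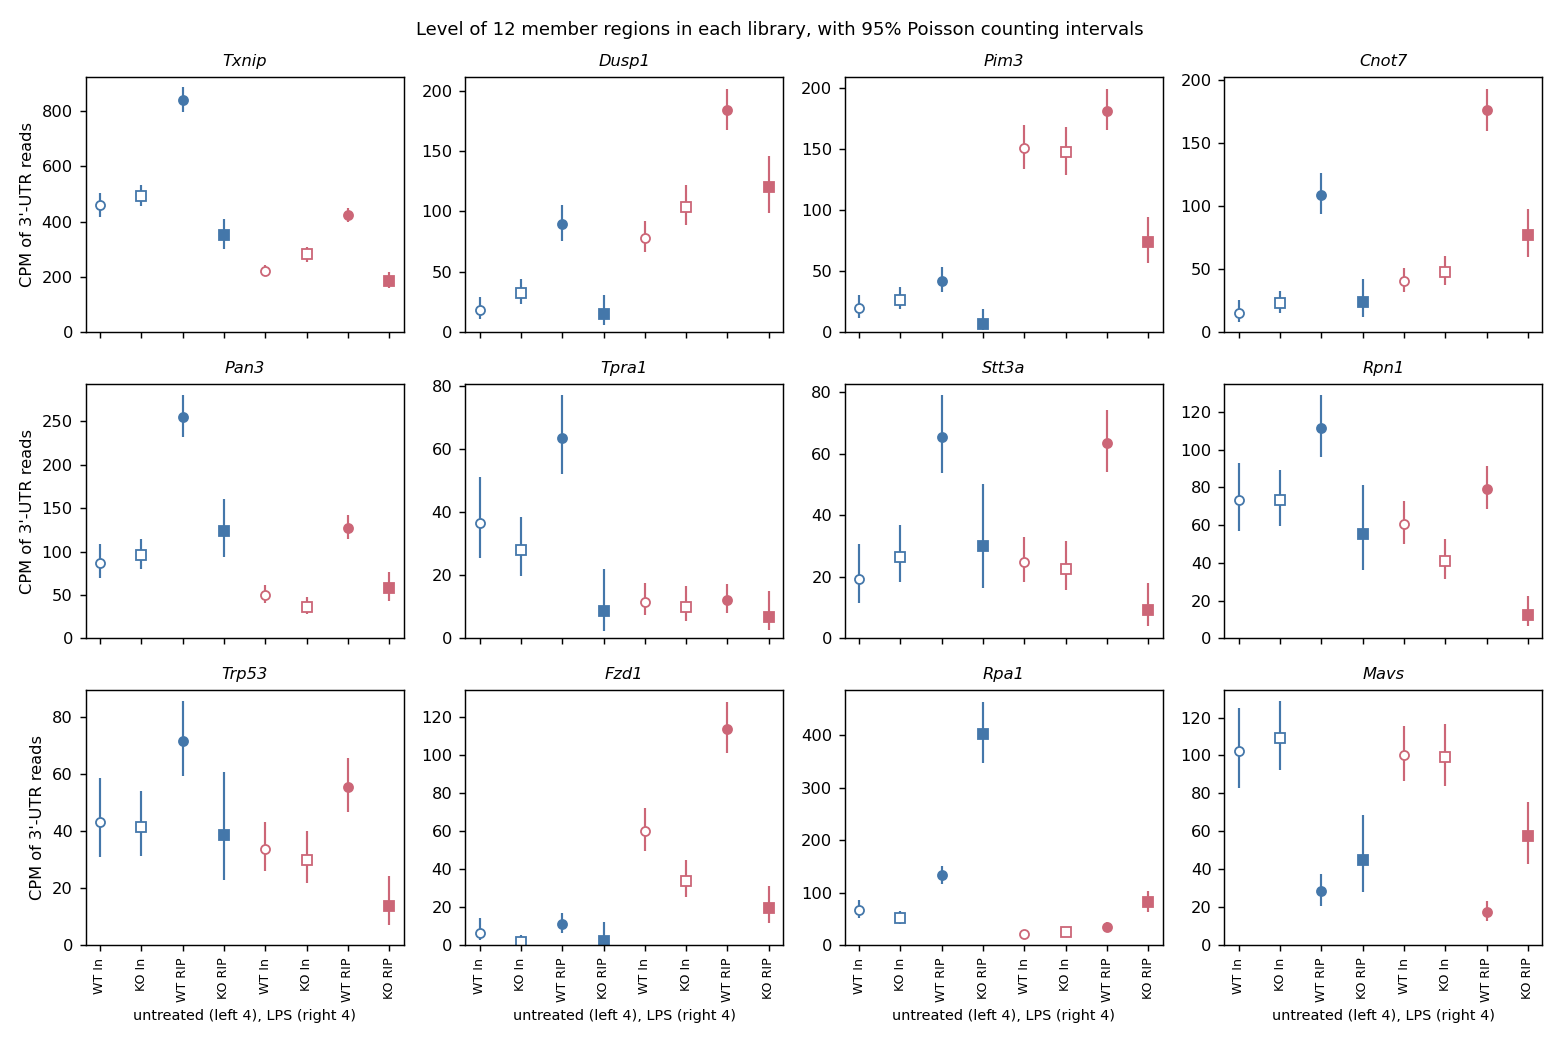
Level in CPM (y axis, from 0) of 12 early strong regions in each of the 8 libraries (x axis), with WT as circles, KO as squares, Inputs open and RIPs filled, untreated in blue and LPS in red, and lines for 95% Poisson counting intervals. In Txnip, Cnot7, Pan3 and Stt3a the WT RIP is above the KO RIP in both treatments, and in Rpa1 and Mavs it is below.

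The lowest ratios in untreated cells belonged to Rpa1, Lsm11, Ssrp1 and Eef1a1. Rpa1, a subunit of the single-stranded DNA-binding protein RPA, was at 133 CPM in the WT RIP and 402 CPM in the KO RIP, with Inputs of 66.7 and 51.3 CPM. The KO RIP was 3.03-fold higher (2.48 to 3.70) untreated and 2.33-fold higher (1.68 to 3.23) after LPS, at 34.9 and 81.5 CPM. Both of its RIPs were thus above their Inputs, and the KO RIP more so. Eef1a1, the translation elongation factor, had a KO RIP 2.93-fold (2.41 to 3.55) and 2.41-fold (1.997 to 2.91) above the WT RIP, but many processed copies of this gene make its reads uncertain. Lsm11, of the histone pre-mRNA processing U7 particle, and Ssrp1, of the FACT histone chaperone, had untreated KO RIPs 3.10- and 3.03-fold above the WT RIP, whereas the WT over KO ratios after LPS were 1.03- and 0.93-fold. The difference between treatments was not tested for either. Scaled to library totals, the untreated KO RIPs of Rpa1, Eef1a1, Lsm11 and Ssrp1 were 1.69-, 1.63-, 1.73- and 1.69-fold above the WT RIP. After LPS those of Rpa1 and Eef1a1 were 1.06- and 1.09-fold above it on that scale, and the WT RIPs of Lsm11 and Ssrp1 were the higher ones, 2.28- and 2.06-fold.

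After LPS the lowest ratios were those of Slfn4, Mavs, Epsti1 and Snrnp70. Slfn4, a Schlafen family gene induced by interferon, had no read in the 4 untreated libraries, and after LPS it was at 43.7 CPM in the WT RIP, 197 CPM in the KO RIP, 17.4 CPM in the WT Input and 33.9 CPM in the KO Input. The KO RIP was 4.51-fold higher (3.53 to 5.79), and reads of close family members could be split among them. Mavs, the mitochondrial adaptor of RIG-I-like receptors, was at 17.3 CPM in the WT RIP and 57.4 CPM in the KO RIP, and near 100 CPM in both Inputs (100 and 99.2 CPM). Its KO RIP was 3.33-fold higher (2.17 to 5.12), and 1.59-fold (0.904 to 2.72) in untreated cells. Epsti1, an interferon-induced gene, and Snrnp70, a protein of the U1 spliceosomal particle, had KO RIPs 3.03-fold (1.84 to 4.99) and 2.86-fold (1.61 to 5.07) above the WT RIP after LPS. Scaled to library totals, the LPS KO RIPs of Slfn4, Mavs, Epsti1 and Snrnp70 were 2.05-, 1.51-, 1.37- and 1.30-fold above the WT RIP, and in untreated cells Mavs turned, with the WT RIP 1.13-fold higher. Mavs and Rpa1 carry TTTTAT 7 bases before ATTAAA, and Dusp1, among the highest, carries it 7 bases before AATAAA, as the sites above show. The CPE and its distance were thus shared by regions at both ends of the ranking.

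Of 72 RNA regulators listed for this work, 10 had an early strong region and 6 passed the filter. Their log2 ratio was above 0 in both treatments in all 6, as in 56.4% of early strong regions and 34.6% of all regions, and past 1 in 2 of them in each treatment, where 11.1% (untreated) and 8.70% (LPS) of all regions were. Cnot7, a deadenylase of the CCR4-NOT complex, was at 109 CPM in the WT RIP and 23.5 CPM in the KO RIP untreated and at 176 and 76.9 CPM after LPS. Its RIPs differed 4.65-fold (2.54 to 9.47) and 2.29-fold (1.77 to 3.01), with Inputs of 15.1 and 22.6 CPM untreated and 40.6 and 47.9 CPM after LPS. Pan3, of the PAN2-PAN3 deadenylase, differed 2.06-fold (1.56 to 2.76) and 2.18-fold (1.62 to 2.99), from 255 against 124 CPM and 128 against 58.5 CPM. Lsm14a, a P-body protein, differed 1.93- and 1.73-fold, Cnot8, a paralogue of Cnot7, 1.83- and 1.44-fold and Papd7, a noncanonical poly(A) polymerase, 1.72- and 1.79-fold. Khsrp, which binds AU-rich elements and promotes decay, was alike in the RIPs, 1.01-fold (0.87 to 1.19) and 1.09-fold (0.94 to 1.27) with at least 199 reads in each. That holds on the scale of 3′-UTR reads, and with library totals the ratios of Khsrp were 1.82- and 2.41-fold.

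Both early strong genes on a list of 53 genes drawn up for negative feedback, Dusp1 and Txnip, were higher in the WT RIP. They were so in both treatments, where 34.6% of all regions had a log2 ratio above 0 in both. The study reports both mRNAs as bound by CPEB4 in these same libraries, Txnip as a target described before. Their side was thus known beforehand. Txnip, the thioredoxin-interacting protein, was at 842 CPM in the untreated WT RIP and 351 CPM in the KO RIP, with Inputs of 460 and 493 CPM. After LPS these were 423, 185, 222 and 281 CPM. The RIPs differed 2.40-fold (2.04 to 2.84) and 2.29-fold (1.94 to 2.72), so the ratio held at the lower level after LPS. The WT over KO Input ratios of Txnip were 0.93-fold (0.82 to 1.05) untreated and 0.79-fold (0.69 to 0.91) after LPS. The untreated interval includes 1. Of 50 cytokines and chemokines, 7 had an early strong region and 2 passed. Spp1 (osteopontin) was at 521 and 464 CPM in the untreated WT and KO RIPs and at 417 and 472 CPM after LPS, ratios of 1.12-fold (0.97 to 1.31) and 0.88-fold (0.79 to 0.99), the latter 1.95-fold with library totals. Csf1, which encodes M-CSF, had 12 reads in the untreated WT RIP and 0 in the KO RIP. With a floor of 3 reads the ratio is 1.12-fold, but its counting interval starts at 0.78 and includes 1. After LPS the RIPs of Csf1 differed 1.53-fold (0.70 to 3.82). Of 41 cell cycle genes that are textbook or likely CPE targets, 4 had an early strong region and Smc2, a condensin subunit, passed, with 1.40-fold (0.83 to 2.52) and 1.68-fold (0.63 to 5.63).

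The other lists fixed for this work held at most 5 measured early strong genes each, and their counts past 1 stand beside the same 11.1% and 8.70% of all regions. Of interferon-stimulated genes 1 of 5 did so in untreated cells and 0 of 5 after LPS, and of Toll-like receptor signalling genes 1 of 3 and 1 of 3. A list of AP-1 and immediate-early factors gave 2 of 4 and 1 of 4, but the genes measured were Atf2, Klf7, Ets1 and Elk3. Fosl1, Myc, Nr4a2 and Crem of that list stayed below the filter. Of genes of the unfolded protein response 0 of 4 were past 1, of translation initiation 0 of 2 and of ribosomal proteins 0 of 3, in both treatments. In the ribosomal protein genes the log2 ratios ranged from -0.63 to 0.03 untreated and from -0.72 to 0.00 after LPS, and their side of 0 depends on the scaling. Their reads may come in part from processed copies, and the only listed ubiquitin-conjugating enzyme among the members, Ube2t, stayed below the filter. Of the macrophage markers, Cd68 was the only one with an early strong region, and its log2 ratio was -1.13 and -1.63. The summed CPM of the macrophage markers as a list was also higher in the KO RIPs than in the WT RIPs, as given above. That order holds on the scale of 3′-UTR reads. With the factors of 1.79 (untreated) and 2.21 (LPS) for library totals, the sums of the WT RIPs are the higher ones. The part of this in other ratios was not tested.

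LPS changed the Input level of many early strong regions in both genotypes, and in bulk RNA fewer cells of a type and less RNA per cell cannot be told apart. In WT, 99 regions (12.9%) were past a log2 ratio of 1 over untreated, against 15.8% of all regions, and 130 (16.9%) were under -1, against 14.4%. In KO these were 96 (12.5%, against 14.3%) and 159 (20.6%, against 17.6%). The median was -0.09 in WT and -0.20 in KO, against -0.03 and -0.10 over all regions. Shares near those of all regions are no result about early strong regions. In the WT RIPs 88 regions (11.4%) rose past 1 and 125 (16.2%) fell past -1 with LPS, against 12.4% and 17.4% of all regions. Scaled to library totals these were 170 (22.1%) and 66 (8.57%), against 21.7% and 8.36% of all regions.

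The strongest rises in WT Input were those of Adora2a, Hspa1b, Slc28a2 and Pde4b. Adora2a, an adenosine receptor, had no read in the 4 untreated libraries and was at 123 CPM (WT) and 93.9 CPM (KO) in the LPS Inputs. With a floor of 3 reads it was 38.0- and 41.5-fold higher there, and the counting intervals start at 30.7 and 33.3. Its RIPs were at 93.1 and 80.3 CPM, a ratio of 1.16-fold (0.88 to 1.54). Hspa1b, an HSP70 chaperone with a near-identical neighbour that makes its reads uncertain, went from 1 read in each untreated Input to 194 and 190 reads. Pde4b, a cAMP phosphodiesterase, rose 12.8-fold (7.06 to 26.0) in WT, from 11.8 to 152 CPM, and 4.83-fold (3.02 to 8.11) in KO, from 15.8 to 76.5 CPM. Slc28a2, a nucleoside transporter, rose 16.5-fold (5.48 to 81.3) in WT and 15.2-fold (7.51 to 35.97) in KO. In Adora2a, Hspa1b and Slc28a2 the LPS WT over KO RIP ratios were from 1.16- to 1.55-fold, and in Pde4b it was 1.67-fold (1.39 to 2.01), beside a WT over KO Input ratio of 1.98-fold.

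The strongest falls in WT Input were those of Cd28, Plau, Arhgap19 and Arhgef6. Arhgap19, a GTPase-activating protein, was at 598 CPM (WT) and 510 CPM (KO) in the untreated Inputs and at 7.38 and 7.99 CPM after LPS, 81.1-fold (47.9 to 149) and 63.8-fold (36.3 to 124) lower. Its RIPs followed, from 646 to 6.42 CPM in WT and from 550 to 5.74 CPM in KO. Plau, the urokinase plasminogen activator, was at 226 and 188 CPM in the untreated Inputs and at 4 and 3 reads after LPS. Its untreated RIPs differed 2.07-fold (1.65 to 2.63). Cd28, best known as a T cell costimulatory receptor, was at 132 and 104 CPM in the untreated Inputs where 7 and 6 of 9 measured T and B cell markers, Cd3d and Cd3e among them, had no read. After LPS it had 0 reads in WT, 83.7-fold lower with a floor of 3 reads, where the counting interval starts at 67.1. In KO it had 3 reads, 52.1-fold lower (17.5 to 256). Arhgef6, a guanine nucleotide exchange factor of Rac and Cdc42, fell 10.97-fold (7.24 to 17.2) and 12.05-fold (7.77 to 19.6).

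The early strong regions with most WT Input reads were those of Sod2, Susd6 and Rab8b. Sod2, the mitochondrial superoxide dismutase, went from 143 to 1312 CPM in the WT Inputs and from 141 to 1485 CPM in the KO Inputs. Its RIPs differed 1.33-fold (0.99 to 1.83) untreated and 1.13-fold (1.06 to 1.21) after LPS, or 2.39- and 2.50-fold with library totals. The region holds 13 consensus CPEs. Rab8b, a small GTPase of membrane traffic, was at 1088 and 1298 CPM in the untreated RIPs and at 1272 and 1290 CPM after LPS, ratios of 0.84-fold (0.76 to 0.92) and 0.99-fold (0.92 to 1.06), or 1.502- and 2.18-fold with library totals. Susd6, a sushi domain protein, differed 1.61-fold (1.38 to 1.88) and 1.11-fold (1.02 to 1.21), or 2.89- and 2.45-fold with library totals. In the deepest regions the counting error was thus small, and the ratios, scaled to 3′-UTR reads, lay between 0.84- and 1.61-fold.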

How the data were processed

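Per the labels and the methods, the authors aligned single-end reads to mm10 with Bowtie2 2.2.2, removed duplicates, and deposited a read count for each Ensembl 3′-UTR and library, with both lanes summed. Strand is not stated to be used, so overlapping genes on the opposite strand cannot be told apart. The authors deposited RPKM values per region length and library total, from which the library totals were computed, and the width of each region in bases. The deposited fold changes, p-values and MACS scores of the authors' own comparisons were not used.

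Members and gene lists were chosen with earlier results of these data known. Rows without a gene symbol (0.902% to 1.04% of the reads) were left out, and repeated coordinates were used 1 time. Ratios are log2 of CPM + 1 over the 3′-UTR reads of rows with a symbol, for regions with at least 40 reads over the 4 Inputs, and a region is called past a log2 ratio of 1. Fold values of named genes are ratios of CPM with exact conditional binomial 95% intervals, for counting error only. Motifs were counted on GRCm38.p6, where the deposited consensus CPE count was met in 26860 of 26860 regions. Named genes, with 1 region per gene, are Cpeb4, the 8 highest and 4 lowest WT over KO RIP ratios per treatment (at least 50 reads in the RIPs and 10 in each Input), the 4 highest and 4 lowest LPS over untreated ratios in WT Input (at least 50 reads in both), the 3 with most WT Input reads and the members of 4 lists. Alternatives in scaling (edgeR 4.0.16, DESeq2 1.42.0), pseudocount, filter, unit and call rule are given at the end. Ratios and call rules were run on simulated Poisson counts with known changes in some regions. These counts held no variation between cultures and no background tied to GC content, so they check only the computation. Python 3.11.15, scipy 1.17.1 and R 4.3.3 were used.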

Additional observations from a re-analysis of the deposited data

How the results depend on the processing

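No paired analysis was possible because each group is 1 library whose lanes were summed, and for the same reason no library could be left out. Values are distances of the early strong median to that of all regions, or percentages of the 770 regions past a log2 ratio of 1. The distance for the WT over KO RIP ratio, 0.36 untreated and 0.37 after LPS, ranged from 0.20 to 0.39 and from 0.18 to 0.41 over 11 alternatives each. With library totals the percentages were 55.3 (untreated) and 69.6 (LPS), and 56.6 and 67.3 input-corrected, against 34.4, 47.4, 38.7 and 47.4 of all regions. With 5 CPM added, WT RIP over Input after LPS was 0.49. A filter of 10 reads gave 0.057 for untreated KO RIP over Input. A filter of 200 reads gave 0.27 and 0.26 for WT over KO RIP with 11.5% and 8.77% (all regions 8.33% and 6.39%), and 0.32 (15.8%, all 12.75%) and 0.34 input-corrected. Without a filter, WT over KO RIP gave 0.20 and 0.18, WT RIP over Input after LPS 0.25, input-corrected LPS 0.30, and untreated KO RIP over Input, both Input comparisons of the genotypes and both of LPS 0, where many regions have no read. At a log2 ratio of 0.5 the percentages were 39.9, 39.9, 45.2 and 39.9, against 25.9, 24.3, 31.5 and 24.7. Without the regions predicted for repression, WT over KO RIP gave 0.25 and 0.21, WT RIP over Input 0.079 and 0.17, input-corrected 0.21 and 0.27, and KO RIP over Input turned to -0.15 and -0.083. The cause of these changes was not tested. TMM, median-of-ratios, 1 read added, 1 region per gene and all rows gave values close to those of the report, except that 1 region per gene took the untreated difference between CPEs within and beyond 20 bases from 0.14 to 0.034. A chi-square rule on the reads of the libraries called 13.0% and 19.0% of early strong regions, against 6.82% and 10.4% of all. The counts behind 1 region limit single ratios most in the untreated KO RIP, the shallowest library.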

Other observations

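Stard13, a GTPase-activating protein of the START domain family, stood apart from the other early strong regions and was chosen after its values were seen. It had 122 reads in the untreated WT RIP and 0 in the KO RIP, and 17 and 0 after LPS. Its Inputs differed too, with 34.4 CPM in WT and 3.02 CPM in KO untreated (11.4-fold, 95% counting interval 4.05 to 44.4) and 5.27 and 0.67 CPM after LPS. The RIP ratio is 11.4-fold in untreated cells with a floor of 3 reads, and its counting interval starts at 9.15.

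Some list members that stayed below the Input filter were also chosen after their values were seen. Il6, the cytokine interleukin 6, had no read in the 4 untreated libraries and 11 (WT) and 7 (KO) reads in the LPS Inputs. In the LPS RIPs it had 134 reads in WT and 18 in KO, at 53.8 and 20.7 CPM, a 2.60-fold difference (1.59 to 4.53). Myc, the transcription factor and proto-oncogene, had 49 and 3 reads in the untreated WT and KO RIPs, a 4.59-fold difference (1.48 to 23.0), with 3 and 4 reads in the Inputs. Ccnb1 and Ccna2, the cyclins B1 and A2, had 19 and 10 and 21 and 3 reads in the untreated RIPs, and the counting intervals of both ratios, 0.24 to 1.28 and 0.59 to 10.3, include 1. Cdc20, an activator of the anaphase-promoting complex, had no read in any RIP.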
